A study of Mus musculus with 12 samples.

Results

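The core spliceosome is the set of proteins that recognise the ends of introns, assemble with the small nuclear RNAs and carry out splicing. Its members were taken here as the genes whose symbol begins with Sf3a, Sf3b, Prpf, Snrp or Lsm, together with U2af1 and Puf60. The rule used names only, and an interval of chromosome 1 that the rule leaves out held 0 members. The rule thus also took in genes with other roles, such as Lsm14a, a protein of cytoplasmic RNA granules, and Lsmd1, which RefSeq names Naa38. It gave 46 genes of 17550, and 631 of 221417 probesets. The first 10 genes act where the 3′ splice site is recognised (U2af1, Puf60, Sf3a1 to Sf3a3 and Sf3b1 to Sf3b5) and are described apart from the other 36.

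The data are 12 Affymetrix Mouse Exon 1.0 ST arrays of total RNA from whole brains of newborn females, 6 wildtype (KIS +/+) and 6 KIS-ko (KIS -/-). Each of 6 litters gave 1 pair of littermates, and each brain had 1 array. The mice came from a knock-out line that had been backcrossed to C57BL6/N, and no treatment was given. A probeset measures an exon or part of one, and its value is a linear signal. A gene value is the mean over the probesets of the gene of log2(signal + 16), and differences are KIS-ko minus wildtype on this log2 scale, with negative values lower in KIS-ko.

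At the 3′ end of an intron SF1 binds the branch point and the U2AF dimer binds the polypyrimidine tract and the AG. The U2 particle, with its SF3a and SF3b complexes, then replaces SF1 at the branch point, and the U4/U6.U5 tri-snRNP joins before catalysis. KIS, encoded by Uhmk1, is a serine/threonine kinase that is abundant in brain and phosphorylates SF1, which strengthens the binding of SF1 to U2AF. The comparison asks whether transcripts of this machinery differ in level or exon content in brains that lack the kinase.

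The targeted gene followed the labels. The gene value of Uhmk1 averaged 10.97 ± 0.057 in the wildtype brains (SD, n = 6) and 8.85 ± 0.15 in those of KIS-ko mice (SD, n = 6), and the difference lay between -2.35 and -1.91 in the 6 litters. Sf1, the direct partner of the kinase, ranged from 11.45 to 11.68 in wildtype and from 11.46 to 11.64 in KIS-ko brains. Its 95% confidence interval for the fold change (KIS-ko over wildtype) ran from 0.925 to 1.081. The array medians of the probesets used lay between 549 and 626. The KIS-ko median was below that of its littermate in litters 1, 2, 3, 5 and 6. These pairs were 594 and 624, 560 and 616, 581 and 591, 549 and 563, and 557 and 626. In litter 4 the KIS-ko median was the higher, at 617 against 577. Of 6 measured neuron markers, 6 had a median probeset signal above 713, the 95th percentile of 5222 intron control probesets, against 0 of 5 microglia markers. The littermates of litter 4 differed in the direction opposite to most other litters, and the counts of members are therefore also given without that litter. The part of the array medians in these differences by litter was not tested. Bulk RNA does not separate fewer cells of a type from less RNA per cell.

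All 46 members kept probesets after the filter on replicate spread, 617 in all, with 2 to 47 per gene and a median of 11. A mean signal above 713 was reached by 410 of them, and 429 carry the table's mark for a match at 1 genomic place. Lsm1, Lsm5 and Lsm10 had no probeset above 713. For 8 members (Lsm5, Lsm7, Prpf4, Snrpc, Snrpd2, Snrpe, Snrpg and U2af1) 0 probesets match 1 place only, so that related sequences may share their signal. The probesets named Sf3b4 lie on chromosome 15 and those named Lsm5 on chromosome 1, where RefSeq has neither gene, and Snrpc, Snrpd2 and Snrpg have probesets on 2 chromosomes each.

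None of the 46 members passed the adjusted test between the genotypes. Limma called 0 of 46 members at an adjusted p under 0.05, against 0.00579% of all genes, and the lowest adjusted p of a member was 0.685. That share is 1 gene, the targeted Uhmk1, so that any list without Uhmk1 would give 0. At an unadjusted p under 0.05 there were 2 of 46 members (4.35%), Prpf18 and Lsm1, both lower in KIS-ko brains, against 6.16% of all 17279 genes tested (4.34% lower and 1.82% higher). The 10 genes of 3′ splice site recognition held 0 of these. The 95% interval of the difference contained 0 for 44 of 46 members. In every member the values of the 2 genotypes overlapped, where 0.208% of all genes did not overlap.

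**Figure D1:**
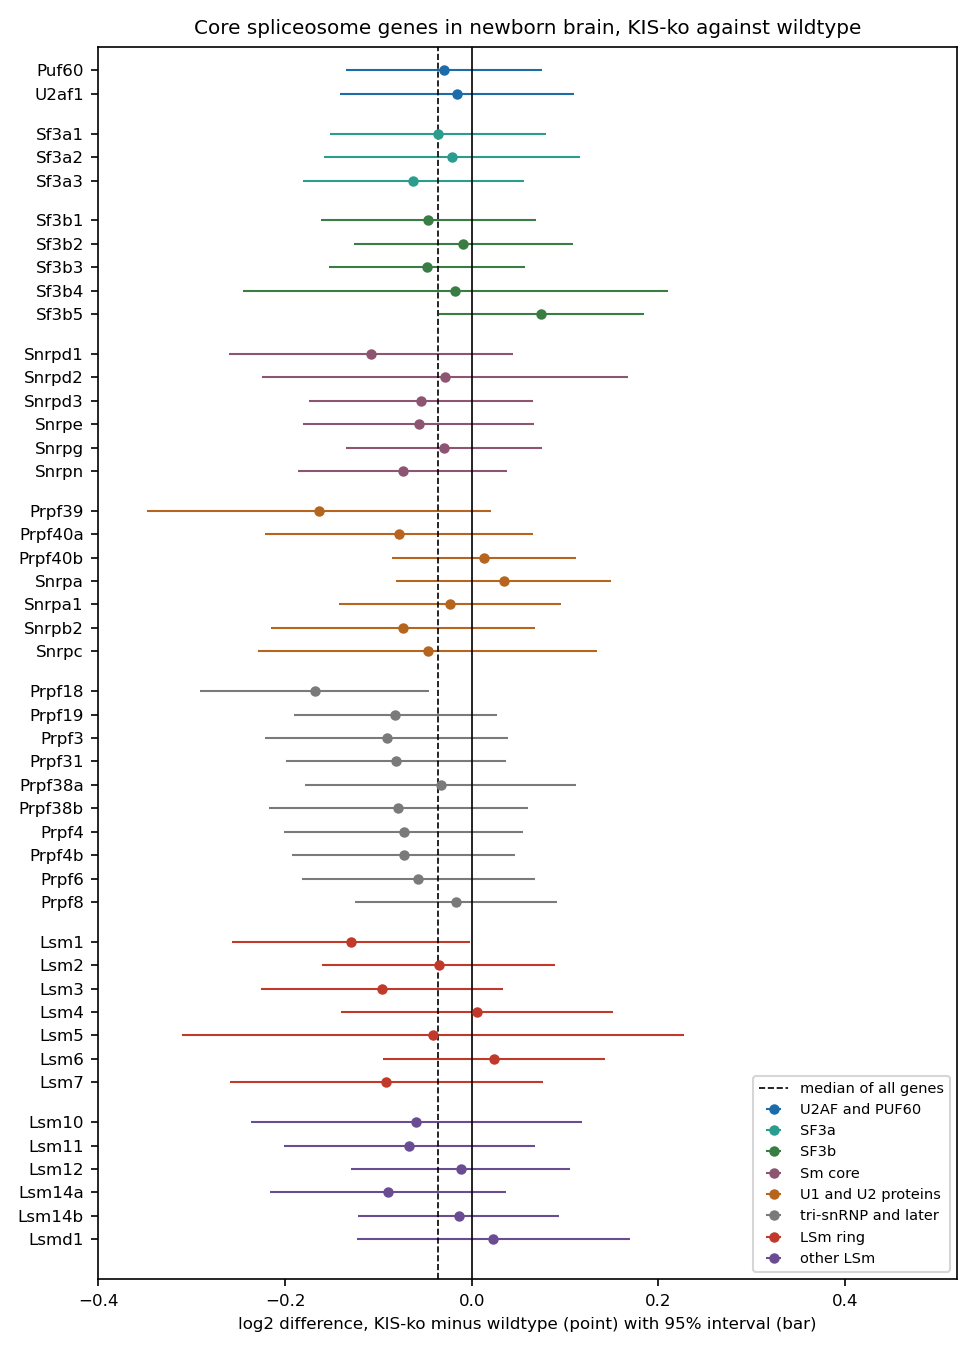
Log2 difference between KIS-ko and wildtype brains for the 46 members, by role, with points for the estimate and bars for the 95% interval of the limma fit over 6 litters; the solid line is 0 and the dashed line the median of all genes, -0.036. The intervals of Prpf18 and Lsm1 lie below 0 and those of the other 44 members contain 0.

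The members as a whole sat slightly lower in KIS-ko brains, as most genes did. The difference was below 0 for 40 of 46 members, 9 of 10 in 3′ splice site recognition and 31 of 36 of the others, against 69.8% of all genes. The median difference was -0.03 for the genes of 3′ splice site recognition and -0.06 for the others, beside -0.04 over all genes. With 1 litter left out they ran from -0.0076 (without litter 2) to -0.07 (without litter 4) for 3′ splice site recognition and from -0.02 (without litter 6) to -0.10 (without litter 4) for the others, while the median of all genes was -0.03, -0.02 and -0.06 without litters 2, 6 and 4. Centring each array on its median added 0.056 to the difference of every gene. With arrays so centred, 21 of 46 members were lower (1 of 10 and 20 of 36) against 37.8% of all genes, and with quantile normalization repeated 26 of 46 (4 of 10 and 22 of 36) against 48.6%. The sign of these small differences therefore depends on the scaling of the arrays. Differences in at least 5 of 6 litters were negative for 17 of 46 members (37.0%) against 22.5% of all genes, and positive for 1 of 46, Sf3b5, against 6.15%.

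Litter 4 ran opposite to litters 1, 2, 5 and 6, and litter 3 lay near 0. Only in litter 4 was the median signal of the KIS-ko array above that of its littermate, at 617 against 577. The median difference of the genes of 3′ splice site recognition was -0.05, -0.09, 0.02, 0.14, -0.04 and -0.10 in litters 1 to 6. For the other 36 members the medians were -0.07, -0.10, -0.03, 0.13, -0.11 and -0.19. Over all genes they were -0.05, -0.09, 0.0023, 0.07, -0.05 and -0.11. In litter 4 the KIS-ko brain was lower than its littermate for 0 of 10 and 4 of 36 members, against 30.3% of all genes, whereas in litter 2 it was lower for 9 of 10 and 34 of 36, against 69.1% of all genes. The mean over litters of these medians was -0.02 ± 0.088 (SD, n = 6) for 3′ splice site recognition, -0.06 ± 0.11 (SD, n = 6) for the other members and -0.04 ± 0.066 (SD, n = 6) for all genes, so that each was smaller than its spread between litters.

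**Figure D2:**
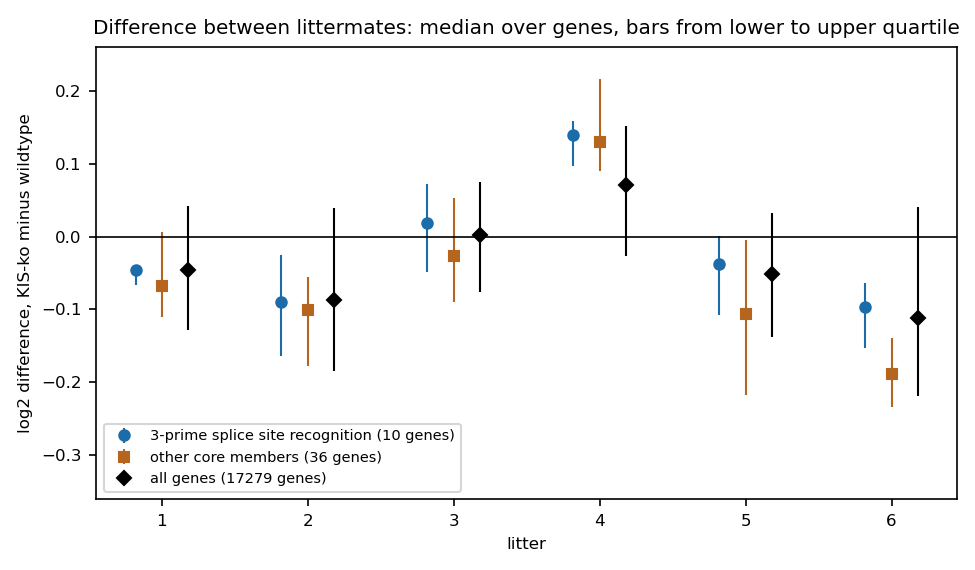
Median over genes of the log2 difference between littermates in each of the 6 litters, for the 10 genes of 3′ splice site recognition (circles), the 36 other members (squares) and all 17279 genes (diamonds), with bars from the lower to the upper quartile over genes. All 3 medians are above 0 in litter 4 and below 0 in litters 1, 2, 5 and 6.

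Without litter 4, 14 of 46 members had an unadjusted p under 0.05, all lower, against 22.6% of all genes (19.0% lower). Only Sf3a3 among them belongs to 3′ splice site recognition, and the other 13 include Prpf18, Prpf39, Lsm1, Prpf3, Snrpd1, Snrpn and Lsm14a. Without litter 1, 2, 3 or 6 the count was 1 of 46, Prpf18, and without litter 5 it was 2 of 46. The adjusted test called 0 of 46 without litter 4 too, against 0.00579% of all genes, again Uhmk1 alone. With litter 4 kept, 6.16% of all genes had an unadjusted p under 0.05 by limma. Litter 4 was picked because its differences ran opposite, so that its removal favours lower values by construction. The p-values without it, here and below, are therefore descriptive and cannot be read as a test.

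Of the proteins that read the pyrimidine tract and the AG, U2af1 encodes the small U2AF subunit, which contacts the AG. Its gene value had a lowest, median and highest value of 8.81, 8.98 and 9.03 in wildtype and of 8.80, 8.96 and 9.07 in KIS-ko brains. The groups overlapped almost completely, with 3 litters lower and 3 higher, and the 95% interval of the fold change was 0.907 to 1.079. Puf60 encodes a tract-binding protein related to the large U2AF subunit. It ranged from 11.01 through a median of 11.13 to 11.19 in wildtype and from 11.03 through 11.07 to 11.17 in KIS-ko brains, with an interval of 0.911 to 1.054.

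SF3a is the 3-subunit complex that joins the U2 particle to form its mature form. Sf3a1 lay between 10.25 and 10.37 in wildtype (median 10.34) and between 10.21 and 10.41 in KIS-ko brains (median 10.28), and its KIS-ko value was the lower in 5 of 6 litters. Sf3a2 lay between 10.81 and 11.12 (median 10.92) and between 10.77 and 11.09 (median 10.91). Its littermates differed by between -0.29 and 0.20, with 4 litters lower and 2 higher. Sf3a3 lay between 9.71 and 9.94 (median 9.86) in wildtype and between 9.72 and 9.86 (median 9.80) in KIS-ko brains. The differences were -0.04 (SE 0.052), -0.02 (SE 0.062) and -0.06 (SE 0.053) for Sf3a1, Sf3a2 and Sf3a3, with adjusted p of 0.799, 0.899 and 0.707 by limma.

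SF3b holds the branch point adenosine of the intron. Sf3b1, its largest subunit and a protein known to bind KIS, averaged 11.53 ± 0.064 in the wildtype brains (SD, n = 6) and 11.49 ± 0.068 in those of KIS-ko mice (SD, n = 6). The brains ranged from 11.45 through a median of 11.55 to 11.63 in wildtype and from 11.38 through 11.49 to 11.58 in KIS-ko. The difference was -0.05 (SE 0.052), 5 of 6 litters and 24 of 28 probesets were lower, and the interval of the fold change was 0.894 to 1.049. Sf3b3, a scaffold of the complex, had a difference of -0.05 (SE 0.047), 5 of 6 litters and 25 of 29 probesets lower. Sf3b2, which contacts the intron beside the branch point, differed by -0.01 (SE 0.053), with 3 litters lower and 3 higher. Here and below, the probesets of a gene read the same brains and are not replicates. The share of all probesets that were lower is not given, nor that of probesets with 6 of 6 litters on 1 side.

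Sf3b4 and Sf3b5 spread in other ways. The 3 probesets named Sf3b4 gave the widest interval of the group, 0.844 to 1.157, since the difference between littermates ran from -0.36 in litter 2 to 0.47 in litter 4. Wildtype brains spanned 9.29 to 9.71 and KIS-ko brains 9.28 to 9.82. Sf3b5, measured by 2 probesets, was the member of the group with a higher value in KIS-ko brains. It had a lowest, median and highest value of 9.78, 9.84 and 10.03 in wildtype and of 9.80, 9.96 and 10.07 in KIS-ko brains, with 5 of 6 litters higher. The difference was 0.07 (SE 0.050, unadjusted p 0.162, adjusted p 0.685). It rested on 1 of the 2 probesets, which differed by 0.16 (SE 0.068, adjusted p 0.751) and was higher in 6 of 6 litters, while the other differed by -0.0088 (SE 0.069). Relative to the median gene of the same litter it was 0.11 ± 0.096 (SD, n = 6) and above 0 in 6 of 6 litters, as for 1.82% of all genes, and with centred arrays the limma test gave 0.13, an unadjusted p of 0.0273 and an adjusted p of 0.733.

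Together the 95% intervals of the 10 genes of 3′ splice site recognition ran from a fold change of 0.844 to one of 1.157, and the distance from the estimate to either bound had a median of 0.12 on the log2 scale. The outer bounds are those of the probesets named Sf3b4, which lie on a chromosome where RefSeq does not have this gene. The intervals of the other genes were narrower.

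**Figure D3:**
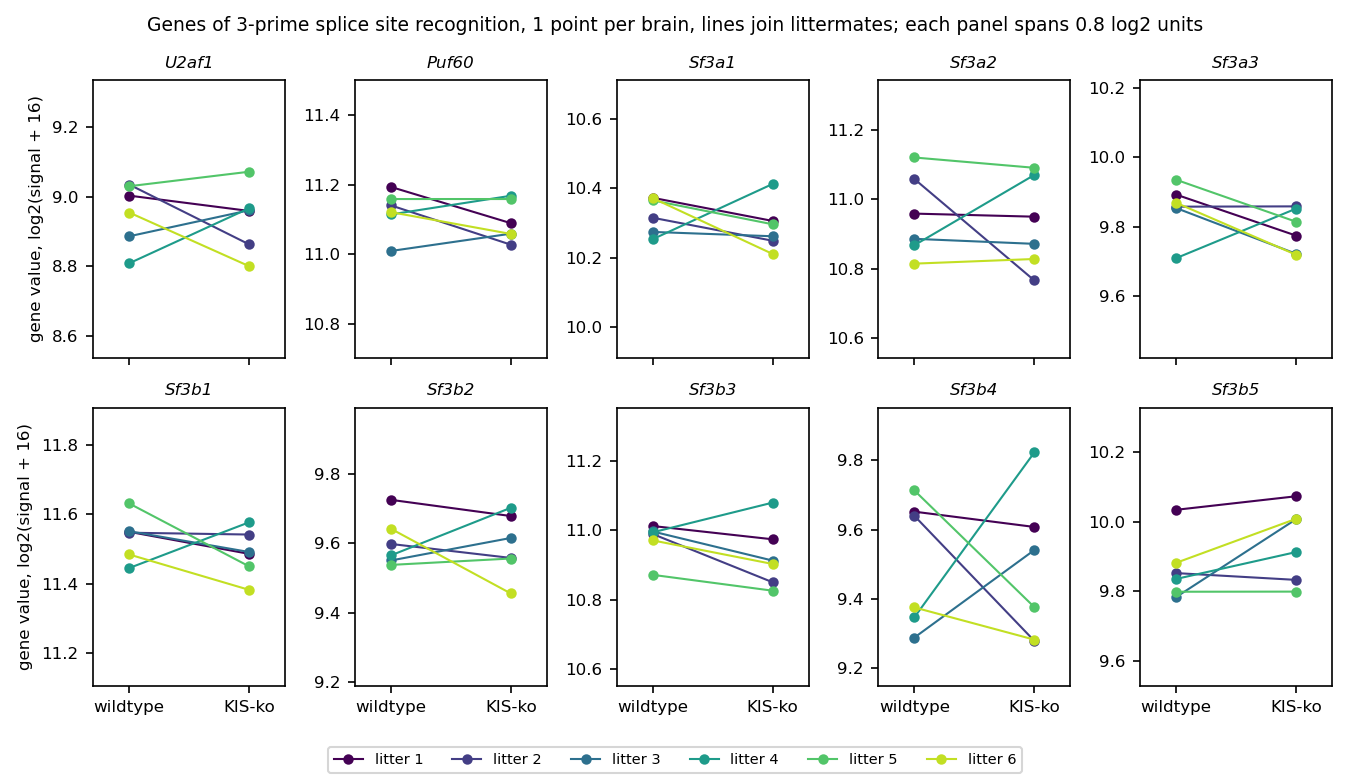
Gene values, as the mean of log2(signal + 16) over probesets, of the 10 genes of 3′ splice site recognition in each of the 12 brains, with wildtype on the left, KIS-ko on the right and a line joining the littermates of each litter. The genotypes overlap in every panel, the lines of litter 4 rise in all 10 panels, and Sf3b4 has the steepest lines in both directions.

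Among the other members, the Sm proteins form the ring on the U1, U2, U4 and U5 RNAs. Snrpb and Snrpf of this ring, and Lsm8 of the ring on U6 RNA, were not analysed here. All 6 Sm genes measured were on the lower side (69.8% of all genes were), with a median difference of -0.06, and 0 of 6 passed at an unadjusted p under 0.05 (6.16% of all genes did). With centred arrays 3 of 6 were lower, with a median of 3.3e-05, and with quantile normalization repeated 4 of 6, with a median of -0.02. Leaving out litter 4 gave 2 of 6 at an unadjusted p under 0.05 by limma, Snrpd1 and Snrpn, against 22.6% of all genes. The median was then -0.09, beside -0.06 over all genes. Snrpn, the imprinted Sm protein that neurons use, had a lowest, median and highest value of 12.48, 12.56 and 12.60 in wildtype and of 12.38, 12.47 and 12.58 in KIS-ko brains. Its difference was -0.07 (SE 0.050, adjusted p 0.686), 5 of 6 litters were lower, and so were 11 of 11 probesets. With centred arrays it was -0.02 (unadjusted p 0.571). Relative to the median gene it was -0.04 ± 0.032 (SD, n = 6). Snrpd1, the SmD1 protein, lay between 8.95 and 9.26 (median 9.16) in wildtype and between 8.92 and 9.16 (median 9.04) in KIS-ko brains. Its difference of -0.11 (SE 0.069, adjusted p 0.685), with 3 of 5 probesets lower, was -0.05 with centred arrays and 0.02 on the 1 probeset that matches 1 place.

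The proteins of the U1 and U2 particles, and those bound to U1, had a median difference of -0.05 over 7 genes, 5 of them lower (3 with centred arrays and 4 with quantile normalization repeated). The median without litter 4 was -0.11 (-0.06 over all genes), and 3 of 7 had an unadjusted p under 0.05 by limma (22.6% of all genes). Prpf39, a U1-associated protein that affects alternative splicing, lay between 8.91 and 9.26 (median 9.15) in wildtype and between 8.75 and 9.22 (median 8.94) in KIS-ko brains. Its KIS-ko value was lower in 5 of 6 litters, by between 0.16 and 0.39, and was 0.32 higher in litter 4. The difference over all litters was -0.16 (SE 0.083, unadjusted p 0.0768, adjusted p 0.685), with 17 of 17 probesets on the lower side. Of these 17 probesets, only 5 had a mean signal above 713. The difference is that of the gene value. With centred arrays it was -0.11 (unadjusted p 0.156). Without litter 4, a litter picked by its opposite values, it was -0.26 with an adjusted p of 0.113. Snrpa, the U1 A protein, and Prpf40b, a U1-associated protein with WW domains, were on the higher side, by 0.03 and 0.01, but Prpf40b was on the lower side, at -0.03, on its probesets that match 1 place.

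Of the proteins of the tri-snRNP and of later steps, 10 of 10 were on the lower side (69.8% of all genes were), with a median difference of -0.08, and 1 of 10 passed at an unadjusted p under 0.05 (6.16% of all genes did). With centred arrays 8 of 10 were lower, with a median of -0.02, and with quantile normalization repeated 8 of 10, with a median of -0.03. Leaving out litter 4 gave 5 of 10 at an unadjusted p under 0.05 by limma, all lower, against 22.6% of all genes. The median was then -0.11, beside -0.06 over all genes. The gene that passed over all litters was Prpf18, a factor of the second catalytic step. It had a lowest, median and highest value of 9.22, 9.35 and 9.43 in wildtype and of 8.97, 9.20 and 9.34 in KIS-ko brains. The KIS-ko brain was lower in litters 1, 2, 3, 5 and 6, by between 0.17 and 0.25, and higher by 0.08 in litter 4. The difference was -0.17 (SE 0.055, unadjusted p 0.012, adjusted p 0.685), an interval of the fold change of 0.817 to 0.969, and 11 of 11 probesets were lower. It was -0.11 with centred arrays (unadjusted p 0.0138) and -0.12 with quantile normalization repeated (unadjusted p 0.0083), with adjusted p of 0.733 and 0.700.

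Prpf19, the ubiquitin ligase of the complex that activates the spliceosome, lay between 11.07 and 11.20 in wildtype and between 10.97 and 11.13 in KIS-ko brains. Its difference was -0.08 (SE 0.049, adjusted p 0.685), and relative to the median gene it was -0.04 ± 0.042 (SD, n = 6), below 0 in 6 of 6 litters, as for 1.6% of all genes. With centred arrays it was -0.03 (unadjusted p 0.439). Prpf3, a protein of the U4/U6 particle, spanned 8.79 to 8.93 in wildtype and 8.61 to 8.94 in KIS-ko brains, with a difference of -0.09 (SE 0.059), and of -0.04 with centred arrays. Prpf8, the protein at the heart of the catalytic centre, was measured by 47 probesets and differed by -0.02 (SE 0.049), with 26 of its probesets lower and an interval of the fold change of 0.917 to 1.065. The difference was 0.04 with centred arrays and 0.0099 with quantile normalization repeated.

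LSm proteins form rings on U6 RNA in the nucleus and, with Lsm1, on messenger RNA that is about to lose its cap. Of the 7 ring genes, 5 were on the lower side, with a median difference of -0.04, and 3 were with centred arrays or with quantile normalization repeated. The median without litter 4 was -0.13 (-0.06 over all genes), with 6 of 7 lower (71.8% of all genes). There 2 of 7 had an unadjusted p under 0.05 by limma (22.6% of all genes). Lsm1 had a lowest, median and highest value of 8.93, 9.16 and 9.28 in wildtype and of 8.92, 9.02 and 9.13 in KIS-ko brains, and 5 of 6 litters were lower. Its difference was -0.13 (SE 0.057, unadjusted p 0.0466, adjusted p 0.685), and with centred arrays -0.07 (unadjusted p 0.132), and 3 of 4 probesets were lower. All its 4 probesets were below the limit of 713 set by the intron controls. Lsm3, a subunit of both rings, differed by -0.10 (SE 0.058), with 4 of 4 probesets and 4 of 6 litters lower, and by -0.04 with centred arrays. The 2 probesets named Lsm5 showed the widest range between littermates of the ring, from -0.59 to 0.40.

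Of the 6 other LSm genes 5 were on the lower side, with a median difference of -0.04, and 3 were with centred arrays or with quantile normalization repeated. The median without litter 4 was -0.08 (-0.06 over all genes), and 1 of 6 had an unadjusted p under 0.05 by limma (22.6% of all genes). Lsm14a, a protein of cytoplasmic RNA granules, spanned 9.93 to 10.03 in wildtype and 9.79 to 10.09 in KIS-ko brains, with a difference of -0.09 (SE 0.057, adjusted p 0.685) and 16 of 17 probesets lower, and of -0.03 with centred arrays. The members of the 36 with a higher value in KIS-ko brains were Snrpa, Prpf40b, Lsm4, Lsm6 and Lsmd1, by 0.006 to 0.03. Lsm4 turned to the lower side without litter 3 or 4 and Lsmd1 without litter 5.

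The difference in percent by the measure of the study's methods, a mean over the probesets of a gene of their littermate ratios with the inverse of the relative spread as the weight, reached 6% for 3 of 46 members (6.52%) against 26.4% of all genes. These were Prpf18 at 0.908, Prpf39 at 0.922 and Lsm1 at 0.933 of wildtype. By this limit 8.84% of all genes were lower, so that most of the 26.4% were higher. A mean of ratios can lie above 1 where the log2 difference is below 0, as for Snrpc at 1.014 and -0.05. Without litter 4 the count was 18 of 46, 17 of them lower, against 44.1% of all genes (24.3% lower). Members ranged from 0.908 to 1.059.

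**Figure D4:**
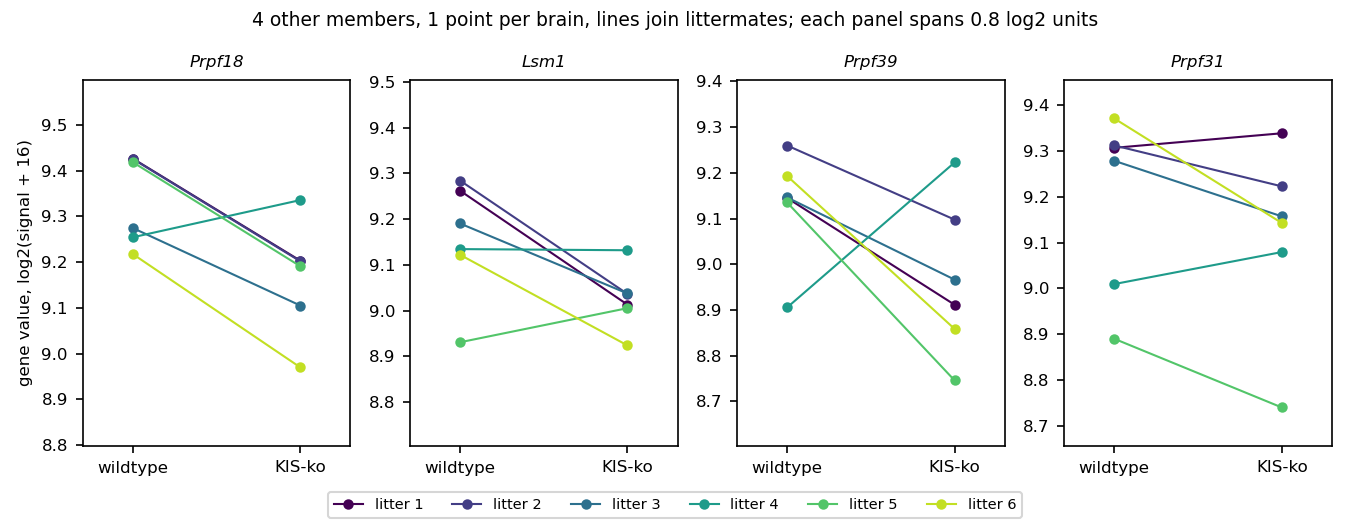
Gene values of Prpf18, Lsm1, Prpf39 and Prpf31 in each of the 12 brains, with a line joining the littermates of each litter. Prpf18 and Prpf39 fall in every litter other than litter 4, and Prpf31 is lowest in litters 4 and 5 in both genotypes.

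The litters differed most, relative to the spread within them, for Prpf31. It encodes a U4/U6 protein, mutated in inherited retinal degeneration, and had values of 9.31, 9.31, 9.28, 9.01, 8.89 and 9.37 in the wildtype brains of litters 1 to 6 and of 9.34, 9.22, 9.16, 9.08, 8.74 and 9.14 in the KIS-ko brains. Litters 4 and 5 were the lowest in both genotypes, and the genotype difference was -0.08 (SE 0.053), and -0.03 with centred arrays. The moderated F-test for litter gave 8.65 with an unadjusted p of 0.00193 and an adjusted p of 0.180. It was 2.36 without litter 5 (adjusted p 1.0), 13.4 without litter 4 (adjusted p 0.0976) and 4.17 with the median over probesets. Over all litters Prpf31 was the 1 member of 46 (2.17%) at an unadjusted p under 0.05, where 11.3% of all genes were, and 0 members passed after adjustment. The next lowest unadjusted p were those of Lsm10 (0.0622), Prpf6 (0.0810), Snrpa1 (0.0890) and Prpf40b (0.128).

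Single probesets were tested between the genotypes, first by their own level and then relative to their gene. Of 617 member probesets, 0 passed at an adjusted p under 0.05 (lowest 0.557, against 0.00487% of all probesets) and 30 (4.86%) at an unadjusted p under 0.05, 24 lower and 6 higher, against 6.63% of all probesets (4.72% lower and 1.91% higher). They lie in 19 genes, and 4 of the 167 probesets of 3′ splice site recognition were among them. For the splicing index, the probeset value minus the value of its gene on the same array, 0 of 609 passed after adjustment (lowest adjusted p 0.608), against 0.000985% of all probesets. At an unadjusted p under 0.05 there were 33 (5.42%), 21 lower and 12 higher, against 6.11% of all probesets (3.15% lower and 2.96% higher), and 5 of the 165 in 3′ splice site recognition.

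The probeset that stood farthest apart was the first of Prpf40b, at chr15:99133722-99133769 in the positions of the table, whose build is not stated. Its linear signal had a lowest, median and highest value of 132, 187 and 234 in wildtype and of 247, 282 and 347 in KIS-ko brains. The groups did not overlap, which held for 1 of 617 member probesets in this direction and for 0.0506% of all probesets, and 6 of 6 litters were higher. The log2 difference was 0.62 (SE 0.114, unadjusted p 4.3e-04, adjusted p 0.557), and the splicing index difference 0.61 (SE 0.120, adjusted p 0.608). All values were below 713, and the table does not mark the probeset as matching 1 place. The other 31 probesets of the gene lay between -0.28 and 0.32. The last one, at chr15:99147054-99147410, had a splicing index difference of -0.28 (SE 0.082, unadjusted p 0.0084, adjusted p 0.743), and the ninth, at chr15:99136883-99136968, a log2 difference of -0.28 (SE 0.088, adjusted p 0.742).

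The other probesets of lowest p were of smaller size. In Prpf4b, a kinase of the tri-snRNP, the first probeset at chr13:34967526-34967551 had signals of 145 to 344 in wildtype and 236 to 418 in KIS-ko brains and a splicing index difference of 0.50 (SE 0.143, adjusted p 0.741). In Prpf4, a U4/U6 protein, 2 probesets share the position chr4:62069909-62069935. One had a log2 difference of 0.30 (SE 0.087, adjusted p 0.731) and the other of 0.08 (SE 0.076). In U2af1 a probeset at chr17:31784240-31784274, the eighth of 10, had a splicing index difference of -0.21 (SE 0.058, adjusted p 0.735). The last probeset of Prpf18, at chr2:4543924-4544096, and the first of Lsm1, at chr8:26902639-26902671, were lower in 6 of 6 litters, by -0.24 (SE 0.072, adjusted p 0.737) and -0.30 (SE 0.090, adjusted p 0.742). One probeset of Lsm14a had groups that did not overlap in the lower direction, where 0.122% of all probesets did so, with signals of 666 to 809 in wildtype and 590 to 664 in KIS-ko brains.

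**Figure D5:**
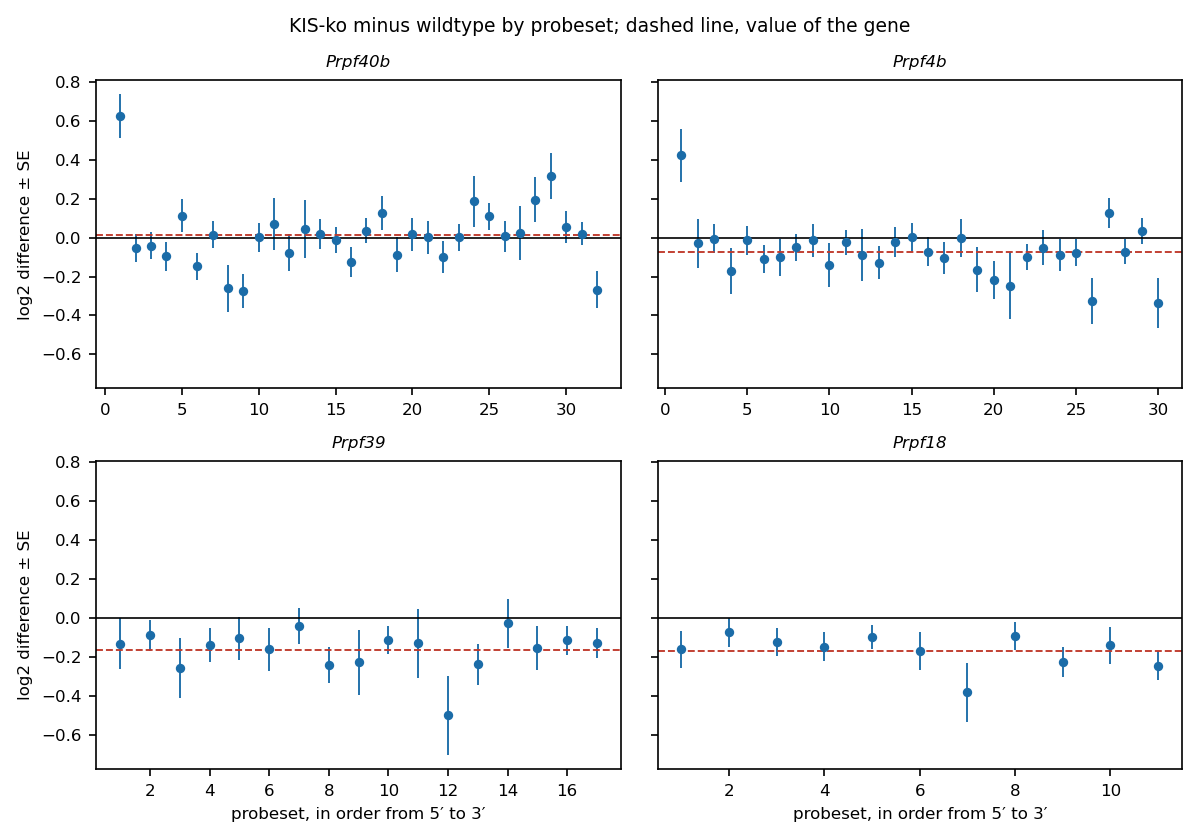
Log2 difference of each probeset with its SE, in order from the 5′ to the 3′ end of Prpf40b, Prpf4b, Prpf39 and Prpf18, with 0 as the solid line and the gene value as the dashed line. The first probesets of Prpf40b and Prpf4b stand at 0.62 and 0.42, above the other probesets of their genes, and all probesets of Prpf39 and Prpf18 lie below 0.

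First probesets had a splicing index difference above 0 in 26 of 42 members with an order along 1 strand (61.9%), with a median of 0.032, against 63.9% and 0.035 over the first probesets of all genes. Last probesets were above 0 in 18 of 42 (42.9%) against 46.7%. The excess at the 5′ end was thus present over all genes too. At an unadjusted p under 0.05 and higher were 3 of 42 first probesets (7.14%) against 6.11% of all first probesets.

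The promoters of Prpf40b, Prpf4b and Prpf4 are shown because the probesets of these genes with a higher value in KIS-ko brains lie at the 5′ end. Lsm1, whose first probeset was lower, is without a match in the promoter table. They are from RefSeq (GRCm38.p6), 250 bases before to 50 after the start, 5′ to 3′, with each CG in capitals. These positions cannot be set against those of the table.
Prpf40b promoter, chr15:99294991-99295290, plus strand: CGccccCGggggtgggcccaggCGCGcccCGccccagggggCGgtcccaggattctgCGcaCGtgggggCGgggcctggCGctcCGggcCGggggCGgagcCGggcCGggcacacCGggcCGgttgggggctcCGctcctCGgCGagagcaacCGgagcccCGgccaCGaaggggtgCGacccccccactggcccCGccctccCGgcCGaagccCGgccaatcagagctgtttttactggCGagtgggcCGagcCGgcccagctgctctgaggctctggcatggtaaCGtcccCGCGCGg
Prpf4b promoter, chr13:34875279-34875578, plus strand: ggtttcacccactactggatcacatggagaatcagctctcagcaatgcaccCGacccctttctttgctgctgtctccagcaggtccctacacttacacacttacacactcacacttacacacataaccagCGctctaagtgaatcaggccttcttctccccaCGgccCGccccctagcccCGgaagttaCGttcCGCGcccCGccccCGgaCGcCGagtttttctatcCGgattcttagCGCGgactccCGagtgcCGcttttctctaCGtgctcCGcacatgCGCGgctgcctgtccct
Prpf4 promoter, chr4:62408533-62408832, plus strand: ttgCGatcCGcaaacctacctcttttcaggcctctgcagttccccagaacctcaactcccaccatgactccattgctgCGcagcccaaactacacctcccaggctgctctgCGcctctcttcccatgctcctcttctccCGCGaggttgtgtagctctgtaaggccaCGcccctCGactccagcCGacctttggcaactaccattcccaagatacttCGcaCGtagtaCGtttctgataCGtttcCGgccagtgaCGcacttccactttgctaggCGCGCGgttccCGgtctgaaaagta
They hold 35, 21 and 19 CG pairs and have a GC content of 78.3%, 58.3% and 56.7%. At least as many CG pairs are found in 6.95%, 24.8% and 28.1% of all 32851 promoters.

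Most of the members' promoters that could be matched were rich in CG pairs. RefSeq promoters matched 36 of 46 members by symbol, with 47 promoters, and their median number of CG pairs was 23 against 7 over all promoters. At least 15 CG pairs were found in 39 of the 47 promoters (83.0%), against 34.6% of all promoters. The TATA box letters TATAAA, on either strand, occurred in 6.38% of the 47 member promoters and 13.6% of all promoters. The GC box letters GGGCGG, which contain a CG pair, occurred in 55.3% and 35.7%, and the letters CCAAT in 44.7% and 37.4%.

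Spliceosome genes outside the naming rule were counted in the same way. Of 74 listed, 71 were measured, 66 of them lower (69.8% of all genes were), with a median difference of -0.06. With centred arrays 39 of 71 were lower and with quantile normalization repeated 45 of 71, against 37.8% and 48.6% of all genes. By limma 0 of 71 passed after adjustment and 1 of 71 at an unadjusted p under 0.05 (6.16% of all genes), which was Magoh, a subunit of the exon junction complex, at -0.16 (SE 0.060, unadjusted p 0.0223, adjusted p 0.685). Without litter 4, 26 of 71 had an unadjusted p under 0.05 by limma, all lower, against 22.6% of all genes (19.0% lower). The median was then -0.10, beside -0.06 over all genes, and 0 of 71 passed after adjustment.

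Markers of cell types were read beside the 69.8% of all genes that were lower. Markers of cycling cells were lower in 8 of 8 cases with a median difference of -0.10, but only 1 of the 8 had a median probeset signal above 713. Those of astrocytes and radial glia were lower in 6 of 6 with a median of -0.10, and 5 of 6 were above 713. With centred arrays the counts were 6 of 8 and 5 of 6 (37.8% of all genes), and with quantile normalization repeated 8 of 8 and 6 of 6 (48.6%), with medians of -0.05 and -0.06. Neuron markers were lower in 5 of 6 (median -0.03), oligodendrocyte markers in 5 of 6 (-0.05), microglia markers in 4 of 5 (-0.03), endothelial markers in 5 of 5 (-0.08) and choroid plexus markers in 3 of 4 (-0.02). Erythroid markers were lower in 1 of 5 (median 0.02) and meningeal markers in 2 of 4 (-0.04). In the order of these 7 lists, centred arrays gave 1 of 6, 2 of 6, 2 of 5, 3 of 5, 1 of 4, 0 of 5 and 2 of 4 lower, and quantile normalization repeated gave 3 of 6, 4 of 6, 2 of 5, 4 of 5, 1 of 4, 1 of 5 and 2 of 4. No marker passed the adjusted test, and their part in the differences of the spliceosome genes was not tested.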

How the data were processed

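Total RNA from 12 newborn mouse brains was hybridized to exon arrays. The authors used the Affymetrix Expression Console with quantile normalization and PLIER, and the deposited intensity of each probeset is this linear signal. The genome build of the table is not given in the sources used here. The table's main probesets that carry a gene name entered, and following the study's methods a probeset was dropped when its relative standard deviation exceeded 0.4 among the brains of one genotype, which left 205469. Values were taken as log2(deposited signal + 16), averaged over the probesets of a gene and tested with limma 3.58.1 in R 4.3.3 (two-sided), the litter being a block. P-values were adjusted by Benjamini-Hochberg over all genes, with a threshold of 0.05. Probesets and splicing indexes (genes with at least 3 probesets) were tested alike. Scripts were tested on simulated data. Figures and summaries used Python 3.11.15, pandas 2.3.3 and matplotlib 3.10.9.

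The labels pair the brains by litter. Deviations of littermates from their genotype means correlated at 0.272, -0.059, 0.136, -0.106, 0.473 and -0.114 in litters 1 to 6. The number of arrays and the signal over the intron controls limit the precision. Named are all genes of 3′ splice site recognition, the 10 other members of lowest p (Snrpn, also named as a neuronal Sm protein, is the tenth), the 5 lowest p for probesets, splicing index and litter, and Uhmk1 and Sf1. Prpf8, Snrpa, Lsm4, Lsm5, Lsm6, Lsmd1, Magoh and the Lsm14a probeset were chosen after their values were seen. The members and lists were chosen with earlier results of these data known. Alternatives were other pseudocounts, filters, scalings and summaries, a fit without the block, and each litter left out.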

Additional observations from a re-analysis of the deposited data

Results flagged for a closer look

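In 44 groups of 6 brains (22 named genes in each genotype), 3 had a brain far from the other 5, with a gap to the nearest that exceeds Dixon's 95% critical value, and chance gives about 1 in 20. The wildtype brain of litter 4 had the lowest Sf3a3 value, 9.71, against 9.85 for the next and 9.94 for the highest. The same brain had the lowest Prpf39 value, 8.91, against 9.14 and 9.26. The wildtype brain of litter 5 had the lowest Sf3b3 value, 10.87, against 10.97 and 11.01.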

How the results depend on the processing

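No member passed the adjusted gene, probeset, splicing index or litter test under any of the settings run, and Uhmk1 stayed between -2.46 and -1.93. Without the litter block the count at an unadjusted p was 2 and the medians -0.026 and -0.058, and the block changed no call. That count became 1 with a pseudocount of 1 and with the median over probesets, and 1 to 14 with a litter left out (1 without litter 1, 2, 3 or 6 and 14 without litter 4). The count at 6%, 3 of 46 and all lower, became 6 of 38 on probesets matching 1 place, 4 of them lower (27.2% of all genes, 10.2% lower). With centred arrays it was 5 of 46, of which 1 was lower and 4 higher (33.0%, 2.73% lower), and with the median 5 of 46, all lower (29.9%, 11.7% lower). It was 2 to 18 with a litter left out (5 without litter 3 and 18 without litter 4). The group medians ran from -0.071 to -0.0076 for 3′ splice site recognition and from -0.10 to -0.023 for the other members with a litter left out. With centred arrays they were 0.030 and -0.0025 (0.020 over all genes). Differences changed sign for 19 of 46 members with centred arrays and 14 of 46 with quantile normalization repeated, all to the higher side, for 4 of 38 on probesets matching 1 place, 6 of 46 with the median and 1 to 6 of 46 with a litter left out. Among the genes named for their level they did so with centred arrays for Puf60 (0.026), Sf3a1 (0.020), Sf3a2 (0.034), Sf3b1 (0.0091), Sf3b2 (0.047), Sf3b3 (0.0076), Sf3b4 (0.038) and U2af1 (0.040). With quantile normalization repeated they did for Puf60 (0.0027), Sf3a2 (0.013), Sf3b2 (0.035), Sf3b4 (0.020) and U2af1 (0.026). On probesets matching 1 place they did for Sf3b4 (0.015) and Snrpd1 (0.015, 1 probeset), with a filter of 0.2 for Snrpd1 (0.039), and with the median for Sf3a2 (0.055). Of the other members described, Prpf8 turned with centred arrays (0.039), with quantile normalization repeated (0.0099) and with the median (0.013). Lsm5 turned with centred arrays (0.015), with quantile normalization repeated (0.0090) and without litter 3 (0.027) or 6 (0.069), and Prpf40b on probesets matching 1 place (-0.029) and with the median (-0.038). With a litter left out, Sf3a2 ranged from -0.066 to 0.033, Sf3b2 from -0.038 to 0.027, Sf3b4 from -0.12 to 0.051 and U2af1 from -0.051 to 0.015. The other genes of 3′ splice site recognition kept their sign, with Puf60 from -0.046 to -0.013, Sf3a1 from -0.075 to -0.011, Sf3a3 from -0.10 to -0.045, Sf3b1 from -0.082 to -0.020, Sf3b3 from -0.075 to -0.030 and Sf3b5 from 0.045 to 0.093. So did Prpf18 (-0.22 to -0.15), Prpf39 (-0.26 to -0.12), Lsm1 (-0.17 to -0.11), Snrpd1 (-0.17 to -0.060), Lsm14a (-0.14 to -0.066), Prpf3 (-0.14 to -0.051), Lsm3 (-0.13 to -0.062), Prpf31 (-0.11 to -0.052), Snrpn (-0.11 to -0.052) and Prpf19 (-0.099 to -0.056). The lowest value came without litter 4 for 34 of 46 members. The causes were not tested.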
